A study of Mus musculus with 16 samples.

Results

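The IkB kinases and their relatives were followed across genotype and kidney disease: the catalytic subunits IKK1 (gene Chuk) and IKK2 (Ikbkb), the regulatory subunit NEMO (Ikbkg), and the IKK-related kinases IKKe (Ikbke) and TBK1 (Tbk1). The 5 genes were set by name, and every array probe assigned to them through its transcript identifier was taken, which gave 6 probes of 55681 and 5 of the 20660 genes with a probe. Ikbkg had 2 probes and each of the other genes had 1. All 6 probes were well above background on all 16 arrays, so no member was lost to a filter on dim probes.

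Transcripts were measured with 1-colour Agilent arrays in CD4+ T cells isolated and sorted from the spleen of male mice of 8 to 10 weeks. All mice carried CD4cre, a Cre recombinase driven by the CD4 promoter. Cre controls (labelled CD4cre) carried nothing further that the labels name, IKK2 knockout mice also carried IKK2fl/fl, and NEMO knockout mice also carried a floxed NEMO gene (labelled NEMOfl/f). Each genotype was studied untreated and on day 10 of nephrotoxic serum nephritis (NTN), a glomerulonephritis set off by sheep serum against kidney, given at 2.5 mg per g of body weight. Cre controls and IKK2 knockouts had 3 arrays in each condition, and NEMO knockouts had 2. CD4cre acts before T cells leave the thymus, in CD4 and CD8 lineages alike, so the model is a T cell deletion rather than one of mature CD4+ cells alone. Nothing in the labels ties each array to its own mouse, and the p values therefore reflect the scatter of these samples alone, part of which can be technical.

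NF-kB factors are held in the cytoplasm by IkB proteins. In the canonical pathway, NEMO binds ubiquitin chains made at activated receptors and brings IKK1 and IKK2 into a complex in which IKK2 is the main kinase for IkB. In the noncanonical pathway, the kinase NIK activates IKK1 without NEMO, and IKK1 drives processing of the Nfkb2 product. TBK1 and IKKe resemble the IKKs in their kinase domains, act through adaptors such as TANK and TBKBP1, and are best known for phosphorylating IRF3 and IRF7 ahead of interferon production. IKKe is an inducible kinase of immune cells, whereas TBK1 is made in most cells.

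Ikbke carried the largest change among the 5 genes, and its promoter is shown for that reason, together with that of Chuk, whose level hardly moved. Both are the 250 bases before the annotated transcription start from RefSeq (GRCm38.p6), read 5′ to 3′ on the minus strand, at chr1:131279564-131279813 for Ikbke and chr19:44107478-44107727 for Chuk. Capitals mark matches to a loose NF-kB site, GGG and CC with any 5 bases between them, searched on both strands.
Ikbke: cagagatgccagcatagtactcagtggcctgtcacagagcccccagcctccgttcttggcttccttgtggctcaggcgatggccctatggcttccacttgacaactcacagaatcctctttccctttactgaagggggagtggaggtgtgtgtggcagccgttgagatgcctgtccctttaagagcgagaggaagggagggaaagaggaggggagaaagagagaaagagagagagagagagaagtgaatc
Chuk: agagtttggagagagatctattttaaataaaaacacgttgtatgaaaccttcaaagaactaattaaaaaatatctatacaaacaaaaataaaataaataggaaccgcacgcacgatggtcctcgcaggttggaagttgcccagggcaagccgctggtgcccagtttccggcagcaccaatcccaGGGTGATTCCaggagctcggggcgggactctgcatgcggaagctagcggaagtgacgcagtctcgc
The motif was present in 45.8% of 32851 promoter windows of that length. Of 7 start sites listed for Chuk, Ikbkg, Ikbke and Tbk1, 4 held it. The Ikbke window had no match, which says only that these letters are not in this window, and the Chuk window had 1. Ikbkb had no entry.

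Levels below are log2 values relative to the 75th percentile of the same array, so a level of 0 equals that percentile, and levels are compared between groups for 1 probe, never between probes. Differences are on the log2 scale with the standard error (SE) from limma fitted to all 16 arrays. A difference was called when its two-sided p, adjusted by Benjamini-Hochberg over the 34938 probes tested, was under 0.05. The share of all 14675 genes called in each comparison is given as background. NEMO knockout arrays were alone on slide 3, Cre control arrays lay on slide 2 when untreated and on slide 1 with NTN, and IKK2 knockout arrays lay on slide 1 except untreated replicate 3, on slide 2. For NEMO knockouts against the other genotypes, slide and genotype therefore cannot be told apart.

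T cell genes were high on every array, and genes of other cells differed between groups. The summed linear level of 14 T cell identity genes lay between 1545 and 1893 on all arrays, and the defining genes Cd4 and Cd3e were well above background on each. The sum over 15 B cell markers was 8.31 to 13.1 in untreated Cre controls, 10.2 to 57.5 in Cre controls with NTN, 42.1 to 66.4 over both IKK2 knockout groups, and 59.7 to 71.0 and 93.8 to 101.8 in untreated and nephritic NEMO knockouts. B cell markers rose in untreated IKK2 knockouts against Cre controls in 12 of 15 cases and macrophage, monocyte and neutrophil markers in 10 of 14, beside 12% of all genes called. The summed level of these 14 markers was 59.91 to 81.60 in untreated IKK2 knockouts and 73.18 to 92.25 in untreated Cre controls. That sum, in which the brightest markers weigh most, was not higher in the knockouts. The median difference of the 14 markers was 2.60, beside 0.05 over all genes, so the sum does not stand for each marker. In the same comparison CD8 and NK cell markers rose in 6 of 10 cases and fell in 1. Dendritic cell markers rose there in 5 of 9 cases and plasma cell markers in 2 of 8, and 0 of 14 T cell identity genes were called (limma). In bulk RNA, fewer cells that make a transcript and less of it per cell cannot be told apart, and unless stated otherwise the part of other cells in the results below was not tested.

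The targeted genes came first. Ikbkb read 3.29, 3.31 and 3.30 in untreated Cre controls and 3.27, 3.45 and 3.18 in Cre controls with NTN. It read 3.31, 2.88 and 2.99 in untreated IKK2 knockouts and 3.02, 2.95 and 2.91 in IKK2 knockouts with NTN. In NEMO knockouts it read 2.84 and 3.06 untreated and 2.78 and 2.86 with NTN. All 4 NEMO knockout arrays and 5 of the 6 IKK2 knockout arrays were below all 6 Cre control arrays, and IKK2 knockout replicate 1, untreated, lay among the controls.

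Averaged over both conditions, Ikbkb was lower in IKK2 knockouts than in Cre controls by -0.29 (SE 0.08, adjusted p = 0.0404, limma), a 1.22-fold fall. The called members there were Ikbkb and Ikbkg, 2 of 5, against a background of 11.3% of genes. This call was lost in 17 of 27 alternatives, among them slide as a block (-0.33, adjusted p = 0.0890) and the omission of any of 12 single arrays (-0.25 to -0.31). Within a condition the IKK2 knockout differences were -0.24 (adjusted p = 0.193) untreated and -0.34 (adjusted p = 0.181) with NTN and were not called. In NEMO knockouts, for which the labels name no change to Ikbkb, the difference was -0.42 (SE 0.09, adjusted p = 0.00207) averaged over both conditions and was called in all 26 alternatives.

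For NEMO knockouts against Cre controls within a condition, Ikbkb differed by -0.35 (adjusted p = 0.0477) untreated and -0.48 (adjusted p = 0.00971) with NTN. The untreated call was lost in 17 of 26 alternatives, and without NEMO knockout replicate 1 of that group the difference was -0.24. The call with NTN was lost without NEMO knockout replicate 1 of the nephritic group (adjusted p = 0.0730, limma). Between the 2 knockouts the Ikbkb differences were -0.11 (95% interval -0.38 to 0.17) untreated and -0.14 (-0.42 to 0.13) with NTN. No source used here places the probe inside the deleted part of Ikbkb, so its reading does not measure the deletion, which the submitters checked by PCR.

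Ikbkg, the target in NEMO knockouts, was highest not in controls but in untreated IKK2 knockouts. On its brighter probe, A_55_P2050652, it read -0.85, -0.74 and -0.52 in untreated Cre controls and -0.26, -0.40 and -0.26 in Cre controls with NTN. It read -0.01, -0.00 and -0.06 in untreated IKK2 knockouts and -0.33, -0.53 and -0.36 in IKK2 knockouts with NTN. In NEMO knockouts it read -0.94 and -0.74 untreated and -0.71 and -0.59 with NTN. The 3 arrays of untreated IKK2 knockouts, of which only replicate 3 was on slide 2, lay above all 13 others. NEMO knockouts overlapped untreated Cre controls.

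**Figure D1:**
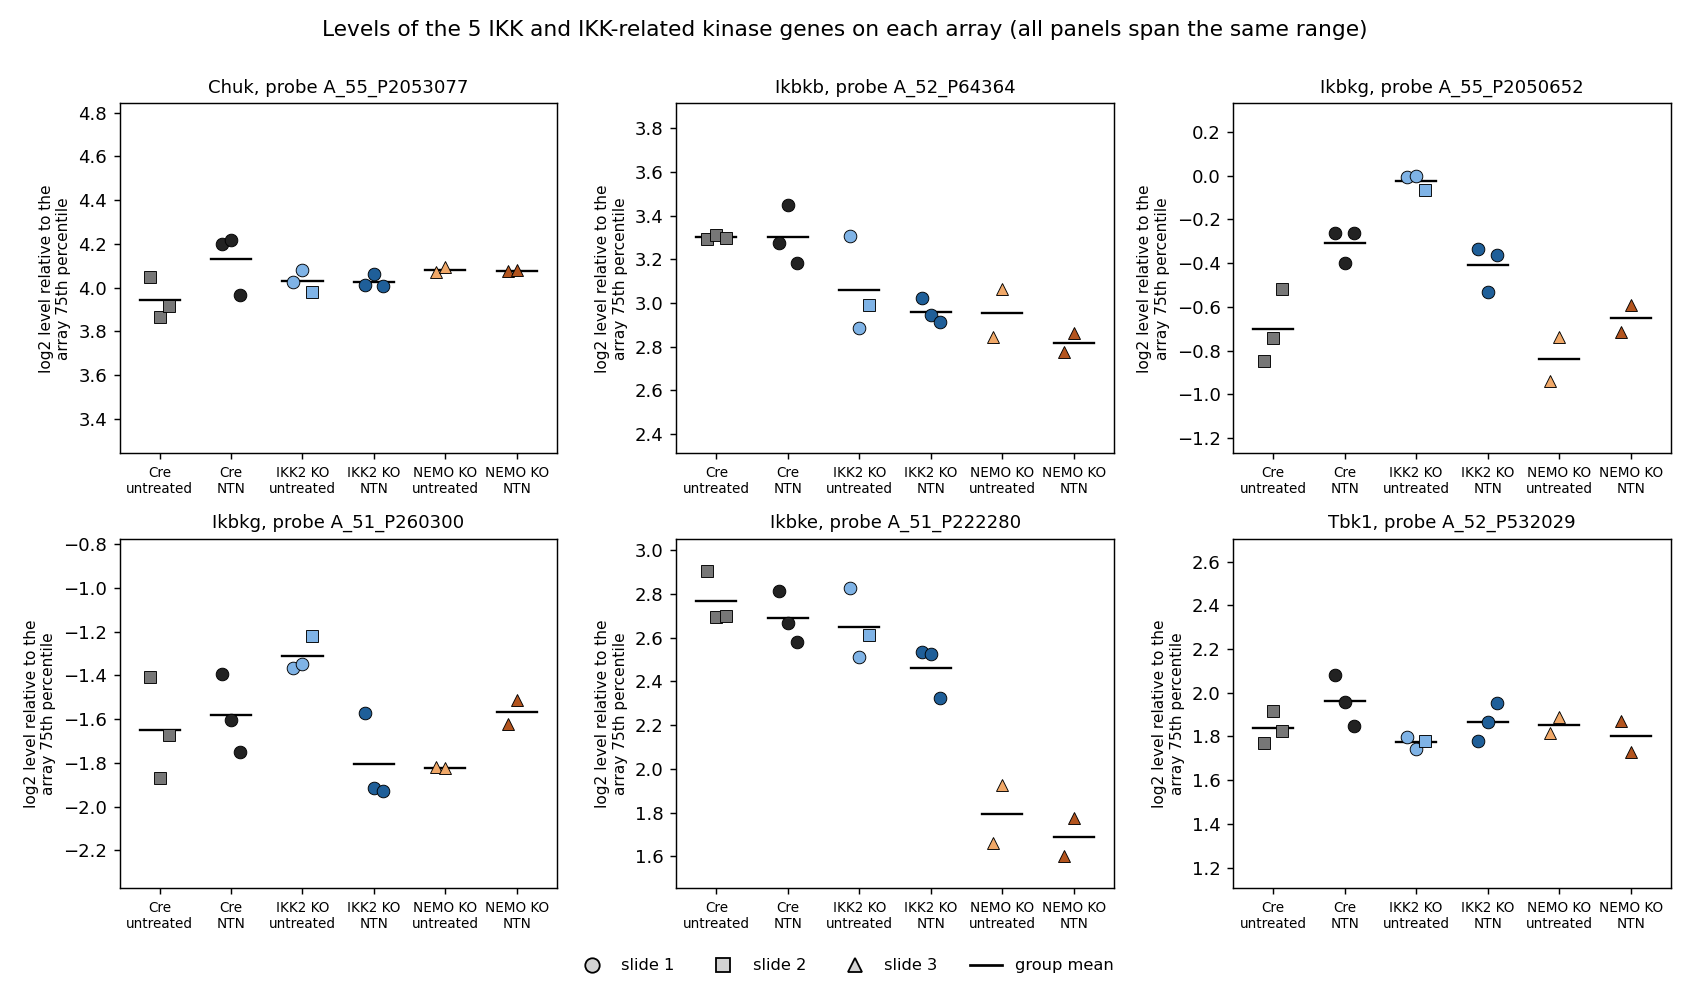
Levels of each probe on the 16 arrays, in log2 units relative to the 75th percentile of the array (vertical axis), by genotype and condition (horizontal axis; KO, knockout; NTN, nephrotoxic serum nephritis). Points are arrays, shaped by slide, and lines are group means; Ikbke is lowest in the 4 NEMO knockout arrays (1.60 to 1.92), and the untreated IKK2 knockout arrays are the highest for the brighter Ikbkg probe.

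Ikbkg was higher in untreated IKK2 knockouts than in untreated Cre controls by 0.68 (SE 0.10, adjusted p = 0.00301, limma), a 1.60-fold rise. It was the only member called there, 1 of 5, where 12% of genes were called. The sample of IKK2 knockouts on slide 2, the slide of these controls, gave 0.64, with 1 array against 3 (adjusted p = 0.311), and slide as a block gave the same 0.64 (adjusted p = 0.0514). Fitted on the 6 compared arrays alone, the adjusted p was 0.0537, and the call held without any 1 of the 16 arrays (adjusted p 0.00313 to 0.0135).

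With NTN the IKK2 knockout difference in Ikbkg was -0.10 (95% interval -0.32 to 0.12), and 0 of 5 members were called (limma), against 1.42% of genes, with Ikbkb alone under an unadjusted p of 0.05. Averaged over both conditions it was 0.29 (SE 0.07, adjusted p = 0.0262), a call lost in 11 of 27 alternatives.

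The second Ikbkg probe, A_51_P260300, was dimmer, and its differences were smaller in some comparisons and larger in others. It read -1.41, -1.87 and -1.67 in untreated Cre controls, -1.39, -1.60 and -1.75 in Cre controls with NTN, and -1.36, -1.35 and -1.22 in untreated IKK2 knockouts. It read -1.57, -1.92 and -1.93 in IKK2 knockouts with NTN, -1.82 and -1.83 in untreated NEMO knockouts, and -1.62 and -1.51 in NEMO knockouts with NTN. Untreated IKK2 knockouts were again highest, but the ranges of this probe overlapped between all other neighbouring groups. Across the 16 arrays the Pearson correlation of both probes was 0.55, a description over arrays that share groups and slides.

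On the second probe the untreated IKK2 knockout difference was 0.34 (SE 0.14, adjusted p = 0.131) and was not called. NEMO knockouts with NTN differed from Cre controls by -0.34 (SE 0.11, adjusted p = 0.0290) on the brighter probe and by 0.02 (SE 0.15, adjusted p = 0.946) on the second, so the call rested on 1 probe. That call was lost in 10 of 26 alternatives, including the mean of both probes (-0.16, adjusted p = 0.187) and the omission of nephritic Cre control 1 or 3 or nephritic NEMO knockout 1 or 2 (-0.28 to -0.41). Untreated NEMO knockouts differed from Cre controls by -0.13 (95% interval -0.38 to 0.11) on the brighter probe, and the mean over both conditions was -0.24 (adjusted p = 0.0238), a call lost in 7 of 26 alternatives, among them without untreated (-0.19) or nephritic (-0.21) NEMO knockout 1. As for Ikbkb, no source places either probe in the deleted part of the gene, so these levels do not measure the deletion.

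Both probes separated untreated knockouts from each other: Ikbkg was lower in NEMO than in IKK2 knockouts by -0.81 (SE 0.11, adjusted p = 0.000323) on the brighter probe and by -0.51 (SE 0.15, adjusted p = 0.0253, limma) on the second. The call of the second probe was lost in 4 of 23 alternatives, with no filter on dim probes (adjusted p = 0.0505) and without untreated IKK2 knockout 3 (0.0585) or untreated NEMO knockout 1 (0.112) or 2 (0.111), at differences of -0.47 to -0.52. Ikbkg and Ikbke were the 2 of 5 members called in that comparison, where 32.6% of genes were called. With NTN the difference between knockouts was -0.24 (adjusted p = 0.102) on the brighter probe and 0.24 (adjusted p = 0.231) on the second.

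**Figure D2:**
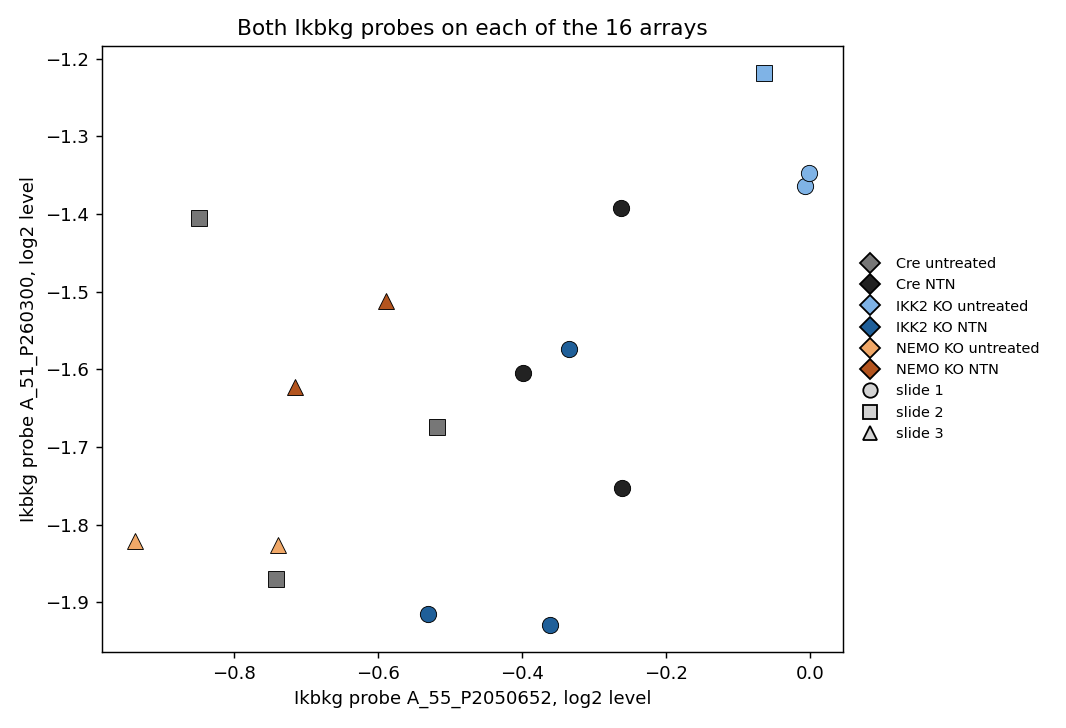
Log2 level of the brighter Ikbkg probe (horizontal axis) against the second Ikbkg probe (vertical axis) on each of the 16 arrays, coloured by group and shaped by slide. The 3 untreated IKK2 knockout arrays are at the top right, above all others on both probes, and the remaining groups are ordered differently by the 2 probes.

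With nephritis, the brighter Ikbkg probe differed in opposite directions in controls and in IKK2 knockouts. The nephritic minus untreated difference was 0.40 (SE 0.10, adjusted p = 0.0575) in Cre controls and -0.38 (SE 0.10, adjusted p = 0.117) in IKK2 knockouts, neither of them called. The difference between these responses, IKK2 knockout minus Cre control, was -0.78 (SE 0.14, adjusted p = 0.0453, limma), the single call among 5 members where 0.477% of genes were called. It kept its sign but lost the call in 22 of 27 alternatives, with adjusted p values of 0.0370 to 0.146 over the 27. On the second probe it was -0.56 (SE 0.19, adjusted p = 0.169). The control part of this contrast sets slide 1 against slide 2, and within slide 1 alone the nephritic IKK2 knockouts differed from untreated ones by -0.40. The median B cell marker differed with NTN by 1.45 in controls, where 3 of 15 markers rose, and by -0.27 in IKK2 knockouts, where 0 of 15 were called (limma). Control medians were 2.25 for erythroid and platelet markers (2 of 12 rose), 1.58 for plasma cell (2 of 8) and 1.58 for macrophage, monocyte and neutrophil markers (4 of 14). Dendritic, CD8 and NK cell markers had 0 called there. The erythroid and platelet sum ran from 10.8 to 733 over nephritic controls.

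No other response to nephritis passed the test among these genes. Members called by nephritis numbered 0 of 5 in Cre controls (background 3.16%), 0 of 5 in IKK2 knockouts (0.348%) and 0 of 5 in NEMO knockouts (0.32%), and 0 of 5 for the NEMO knockout response against the control response (0.123%), all by limma. At an unadjusted p under 0.05 the counts were 2 (Chuk and Ikbkg), 1 (Ikbkg), 0 and 0. For Ikbke the nephritic minus untreated differences were -0.08, -0.19 and -0.11 in Cre controls, IKK2 knockouts and NEMO knockouts, with intervals within -0.45 and 0.21.

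Ikbke, encoding the inducible kinase IKKe, had its lowest levels in NEMO knockouts, in both conditions. It read 2.91, 2.70 and 2.70 in untreated Cre controls and 2.81, 2.67 and 2.58 in Cre controls with NTN. It read 2.83, 2.51 and 2.61 in untreated IKK2 knockouts and 2.53, 2.53 and 2.32 in IKK2 knockouts with NTN. In NEMO knockouts it read 1.66 and 1.92 untreated and 1.60 and 1.77 with NTN. The 4 NEMO knockout arrays did not overlap any other array, and all other neighbouring groups overlapped.

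Ikbke was lower in NEMO knockouts than in Cre controls by -0.97 (SE 0.13, adjusted p = 0.00016) untreated, and with NTN the 95% interval of the difference was -1.29 to -0.71 (adjusted p = 0.000123, limma). The fall averaged 1.98-fold over both conditions (mean -0.99, SE 0.09, adjusted p = 4.11e-06). The members called were Ikbkb and Ikbke untreated, 2 of 5 against 40.8% of genes. With NTN they were Ikbkb, Ikbkg and Ikbke, 3 of 5 against 45.6%, and the same 3 of 5 passed in the mean of both conditions against 57.7%. The number of members called is thus near the background in these comparisons, and the Ikbke difference is described by its size.

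Ikbke also separated the knockouts from each other, by -0.86 (SE 0.13, adjusted p = 0.00061) untreated and by -0.77 (SE 0.13, adjusted p = 0.000705, limma) with NTN, where it was the only member called, 1 of 5 against 44.1% of genes. All 5 of these Ikbke calls held in every one of 26 alternatives, and the mean difference from controls ranged from -0.92 to -1.05. In IKK2 knockouts Ikbke differed from controls by -0.12 (95% interval -0.37 to 0.14) untreated and -0.23 (-0.48 to 0.03) with NTN.

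Genes of other cells differed too where Ikbke fell. In the mean of both conditions, NEMO knockouts against Cre controls had 8 of 8 plasma cell, 8 of 9 dendritic cell, 11 of 14 macrophage, monocyte and neutrophil, 7 of 10 CD8 and NK cell and 9 of 15 B cell markers higher, beside 57.7% of all genes called in either direction. Of the CD8 and NK cell markers, 2 were lower. T cell identity genes fell there in 7 of 14 cases and rose in 1, with a median of -0.16 beside -0.10 over all genes, and their sums on NEMO knockout arrays (1545 to 1651) lay below those of all Cre control arrays (1669 to 1893). Between the untreated knockouts Ikbke differed by -0.86 and 32.6% of all genes were called. Of the markers, 0 of 15 B cell and 0 of 14 macrophage, monocyte and neutrophil markers were called there (limma), with median differences of 0.00 and 0.08. CD8 and NK cell markers rose in 1 of 10 cases and fell in 2, and 1 of 9 dendritic cell markers rose. Plasma cell markers rose in 2 of 8 cases there and T cell identity genes fell in 3 of 14 and rose in 1, with a median of -0.13 beside -0.08 over all genes. With NTN, where 44.1% of all genes were called between the knockouts, plasma cell markers rose in NEMO against IKK2 knockouts in 7 of 8 cases, CD8 and NK cell markers in 6 of 10 and macrophage, monocyte and neutrophil markers in 3 of 14 (median 1.03). Of the CD8 and NK cell markers 2 fell, and 1 of 9 dendritic cell markers rose. T cell identity genes fell there in 5 of 14 cases and rose in 1 (median -0.14), and 3 of 15 B cell markers fell.

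**Figure D3:**
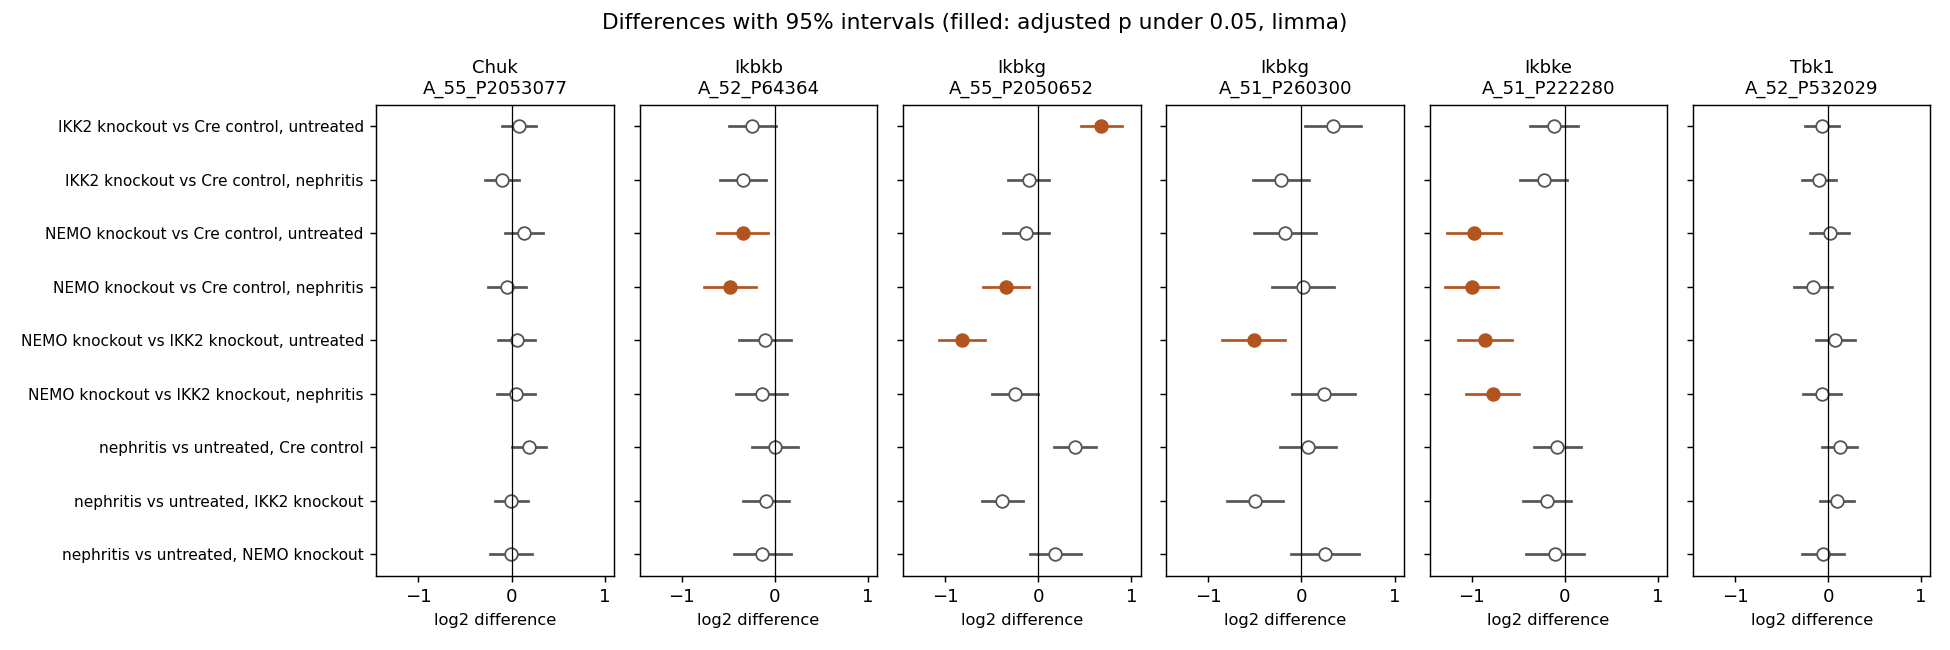
Log2 differences (horizontal axis) with 95% intervals from limma for each probe (panels) in 9 comparisons (vertical axis). Filled points have an adjusted p under 0.05; Ikbke is filled and below 0 wherever NEMO knockouts are compared with another genotype, and no point is filled for Chuk or Tbk1.

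Chuk and Tbk1 stayed near 1 level. Chuk, encoding IKK1, read 4.05, 3.87 and 3.92 in untreated Cre controls, 4.20, 4.22 and 3.97 in Cre controls with NTN, and 3.98 to 4.09 on all 10 knockout arrays. Tbk1 read 1.77, 1.91 and 1.83 in untreated Cre controls, 2.08, 1.96 and 1.85 in Cre controls with NTN, and 1.73 to 1.95 on the knockout arrays. All neighbouring groups overlapped for both genes.

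Neither gene was called in any of the 13 comparisons, with the lowest adjusted p at 0.219 for Chuk and 0.196 for Tbk1 (limma). In 2 of 26 alternatives Chuk was called higher in untreated NEMO knockouts than in Cre controls, by 0.35 with normexp background correction (adjusted p = 0.0234) and by 0.28 in the deposited matrix (adjusted p = 0.0419), against 0.14 here (adjusted p = 0.262). The NEMO knockout minus Cre control means were 0.04 (95% interval -0.10 to 0.19) for Chuk and -0.07 (-0.22 to 0.07) for Tbk1. The highest and lowest group means differed by 0.18 for Chuk and 0.19 for Tbk1, against a median of 0.68 over all genes, and 2.75% and 2.90% of genes had a smaller range. The same range was 0.48 for Ikbkb, 0.81 for the brighter Ikbkg probe and 1.08 for Ikbke, which lay at percentiles 34.2, 58.1 and 68.8.

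Adjacent groups by mean level were ordered as follows. Ikbke rose from nephritic to untreated NEMO knockouts, then nephritic and untreated IKK2 knockouts, then nephritic and untreated Cre controls, and the only gap without overlap was that of 0.67 above the NEMO knockouts. Ikbkb had both NEMO knockout groups lowest, then nephritic and untreated IKK2 knockouts, then both control groups, with overlap at each step. The brighter Ikbkg probe had gaps without overlap of 0.24 below nephritic IKK2 knockouts and 0.28 below untreated IKK2 knockouts.

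The genes most like each member across the 16 arrays were taken as those with the highest Pearson correlation (r), a description over arrays that share groups and slides. For Ikbke they were Iqcb1 (r = 0.98), Plscr3 (0.97) and Metap1d (0.97), and over the 12 arrays without NEMO knockouts the values were 0.89, 0.80 and 0.69. For Ikbkb they were Stx1a (0.95), Thbs3 (0.91) and Arhgef4 (0.91), with 0.95, 0.94 and 0.91 over the 12 arrays. For Ikbkg they were Gm16062 (0.96), Zfyve21 (0.93) and Mef2d (0.93), with 0.96, 0.89 and 0.91.
For Chuk they were Znhit1 (0.86), Tspo (0.82) and Golga7 (0.80), and for Tbk1 they were Bri3 (0.92), Pdhb (0.90) and Ddx42 (0.89). Among members, Ikbkb and Ikbke had r = 0.76 over the 16 arrays, and Chuk and Ikbkb -0.01.

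Genes that work with these kinases were read from lists by role, as the mean of both conditions unless stated. Each count is to be read beside the share of all genes called in either direction, which was 11.3% in IKK2 knockouts and 57.7% in NEMO knockouts. In IKK2 knockouts 3 of the 8 IkB and NF-kB genes tested fell and 0 rose (37.5%): Relb (-0.60, adjusted p = 0.00286), Nfkbia (-0.56, adjusted p = 0.000293), which encodes IkBa, and Nfkb2 (-0.53, adjusted p = 0.00602, limma). The list median was -0.11 beside 0.01 over all genes. Nfkbia differed by -0.80 untreated (adjusted p = 0.000528) and by -0.32 with NTN (adjusted p = 0.0795, not called), and it rose with nephritis in IKK2 knockouts by 0.58 (adjusted p = 0.0153, limma). The difference of that response from the control response was 0.48 (adjusted p = 0.0828) and was not called. In NEMO knockouts 4 of 8 rose, including Nfkb2 (0.53) and Bcl3 (0.49), and 1 fell, Rela (-0.40), with a list median of 0.33 beside -0.10 over all genes. The share called, 62.5%, was near that of all genes.

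The knockouts were also compared directly. Nfkb2, the precursor processed downstream of IKK1, was higher in NEMO than in IKK2 knockouts by 0.89 (adjusted p = 0.000987) untreated and by 1.23 (adjusted p = 6.80e-05, limma) with NTN. Relb, its partner subunit, was higher by 0.66 and 0.89 (adjusted p = 0.00518 and 0.000522). Of the 8 genes, 3 rose untreated (37.5%, beside 32.6% of all genes) and 5 with NTN (62.5%, beside 44.1%), and 0 fell in either.

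The NIK arm upstream of IKK1 had 4 of 10 genes up and 2 down in IKK2 knockouts against Cre controls, and 5 up and 1 down in NEMO knockouts. The share called was 60% in each, above the 11.3% of all genes in IKK2 knockouts and near the 57.7% in NEMO knockouts. The genes up in IKK2 knockouts were Cd40, Tnfrsf13c (1.24), Ltbr (1.24) and Map3k14, of which Map3k14 rose least. Ltbr was well above background on 2 of the 3 Cre control arrays in each condition. Map3k14, encoding NIK, rose in IKK2 knockouts on its brightest probe (0.32, adjusted p = 0.0233, limma), while its other probe gave 0.13. Traf3, which targets NIK for degradation, fell (-0.49, adjusted p = 0.00246, limma). Against IKK2 knockouts, NEMO knockouts had less Map3k14 (-0.41 untreated, -0.67 with NTN) and more Traf3 (0.47 and 0.68), all 4 called. Tnfrsf4, the costimulatory receptor OX40, fell in IKK2 knockouts (-0.45) and rose in NEMO knockouts (0.57). Cd40 and Tnfrsf13c, the BAFF receptor, are also B cell genes. Cd40 was not well above background in untreated Cre controls and was at least 9.87-fold higher in untreated IKK2 knockouts and at least 8.43-fold higher in untreated NEMO knockouts. A bound of this kind divides the brighter group's mean by a floor, which on each array is the dimmest signal that passed as above background, or the Cd40 or Optn signal itself where that was higher. B cell markers rose in 13 of 15 cases in IKK2 knockouts and in 9 of 15 in NEMO knockouts, and their part in these receptor values was not tested.

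**Figure D4:**
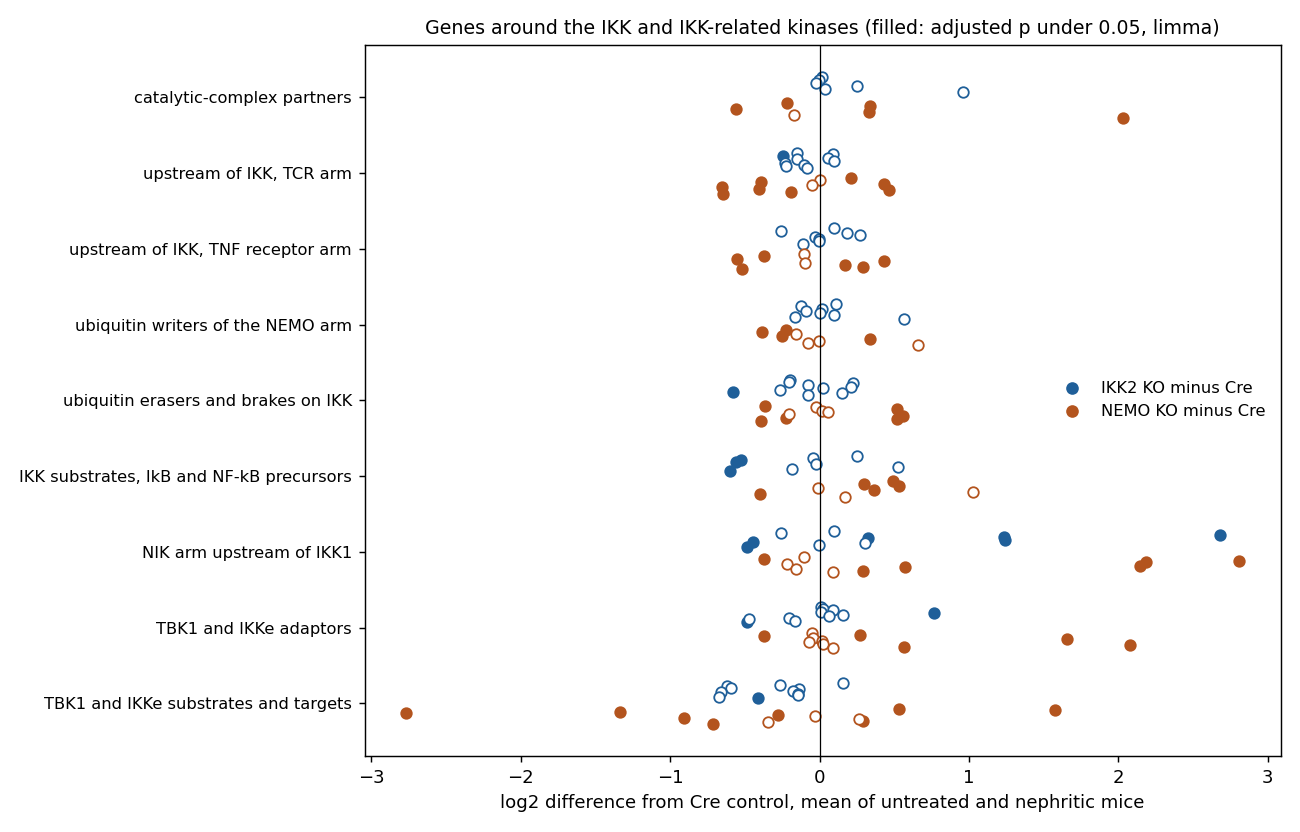
Log2 difference from Cre control, as the mean of untreated and nephritic mice (horizontal axis), of the tested genes in 9 lists by role (vertical axis), for IKK2 knockouts (blue) and NEMO knockouts (orange). Filled points have an adjusted p under 0.05 (limma); 3 of the 8 IkB and NF-kB genes fell in IKK2 knockouts, whereas 4 of 8 rose in NEMO knockouts.

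Among the adaptors of TBK1 and IKKe, 4 of 11 rose and 1 fell in NEMO knockouts, and 1 rose and 1 fell in IKK2 knockouts. These shares were 45.5% beside 57.7% of all genes and 18.2% beside 11.3%. Tbkbp1, an adaptor that binds TBK1, was 2.08 higher in NEMO knockouts than in controls (SE 0.36, adjusted p = 0.000473, limma). Against IKK2 knockouts it was higher by 2.14 untreated and 2.97 with NTN, the opposite direction to Ikbke. Optn, the autophagy receptor optineurin, a TBK1 substrate, was not well above background in untreated Cre controls and was at least 2.76-fold higher in untreated NEMO knockouts and at least 1.90-fold higher in untreated IKK2 knockouts. Ticam1, encoding the adaptor TRIF, rose by 0.56 in NEMO knockouts (adjusted p = 0.000333, limma), and Ddx3x fell (-0.38).

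Substrates and targets of TBK1 and IKKe had 5 of 11 genes lower and 3 higher in NEMO knockouts, 72.7% beside 57.7% of all genes. The list median was -0.28 there, beside -0.10 over all genes. The interferon-induced genes Ifit3 (-2.77, SE 0.33, adjusted p = 2.83e-05, limma), Ifit1 (-1.34) and Isg15 (-0.91) fell in NEMO knockouts. Cxcl10, a chemokine also induced by interferons, rose there (1.58, SE 0.43), as did Akt1 (0.53). In IKK2 knockouts Ifit3 differed by -0.59 (adjusted p = 0.236, limma) and was not called. Ifit3 was lower in NEMO than in IKK2 knockouts by -2.41 (adjusted p = 0.00272) untreated and -1.94 (adjusted p = 0.00642) with NTN.

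Upstream of the IKKs, T cell receptor signalling genes had 5 of 10 down and 3 up in NEMO knockouts and 1 down and 0 up in IKK2 knockouts. These shares were 80% beside 57.7% of all genes and 10% beside 11.3%, and 7 of 14 T cell identity genes fell in NEMO knockouts as well. Prkcq, encoding the kinase PKC-theta that starts this arm, fell by 0.65 (adjusted p = 2.83e-05), Traf6 by 0.65 (adjusted p = 4.32e-05) and Malt1 by 0.39 (adjusted p = 0.000528, limma). Malt1, a paracaspase, was also the gene that fell in IKK2 knockouts (-0.25, adjusted p = 0.0273). Map3k7, encoding TAK1, was 0.43 higher in NEMO knockouts on its brightest probe, but its 2 other probes gave -0.00 and -0.06.

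The TNF receptor arm had 3 of 8 genes up and 3 down in NEMO knockouts and 0 called in IKK2 knockouts (limma). The shares called in NEMO knockouts were 75% in this arm, 50% of ubiquitin writers, 60% of erasers and brakes and 83.3% of partners, beside 57.7% of all genes. Map3k3, a kinase upstream of the IKKs, fell (-0.55), as did Traf5 (-0.52), and Ripk1, the scaffold kinase on which ubiquitin chains are built, rose (0.43). Of 8 ubiquitin writers, 3 fell and 1 rose in NEMO knockouts, with the chain-building LUBAC subunits Rnf31 (-0.38) and Rbck1 (-0.23) among those that fell, and 0 were called in IKK2 knockouts. Of 10 ubiquitin erasers and brakes, 3 rose and 3 fell in NEMO knockouts, where Tnfaip3, encoding A20, rose (0.56) and Cyld fell (-0.36). Tnfaip3 differed in IKK2 knockouts by -0.73 untreated (adjusted p = 0.0190) and by 0.20 with NTN (adjusted p = 0.580), and it rose with nephritis there by 1.01 (adjusted p = 0.0293, limma). The difference of the nephritis response from that of controls was called for 0 of the 10 erasers and brakes, Tnfaip3 included. Of the erasers and brakes, 1 fell in IKK2 knockouts in the mean of both conditions, Tnip1 (-0.58, adjusted p = 0.000851, limma), the A20 partner ABIN1. Partners of the kinase complex had 3 of 6 up and 2 down in NEMO knockouts, including Erc1 (-0.56), the scaffold ELKS, and the chaperone cofactor Cdc37 (-0.22), and 0 called in IKK2 knockouts.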

How the data were processed

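For all 16 arrays the deposited files are scanner output, whose processed signal is a spot intensity on a linear scale, background-subtracted by Agilent Feature Extraction per the file headers (version 10.5 per the submitters' processing notes, 10.7.3.1 per the headers, which name build mm9). They also deposited a matrix of log2 values, with no processing method named in the labels; medians by column were 5.65 to 5.68, it correlated with the log2 median spot intensity at 0.994 to 0.999, and it served as an alternative. Control and outlier spots (103 to 246 per array) were left out, no spot was saturated, and 48.9% to 59.8% of spots were well above background. Spots of a probe were averaged, log2 taken, and the 75th percentile of each array (intensity 237 to 419) subtracted. The number of arrays limits the precision.

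Transcript identifiers were named through RefSeq (GRCm38.p6, names only): 27235 probes had 1 symbol, 28446 none. Testing was limited to probes that exceeded background clearly on 2 or more arrays (34938 probes, 14675 genes, each represented by its brightest probe) and used limma 3.58.1 in R 4.3.3, as 6 group means over all 16 arrays, after the code was tested on simulated data. Of the tested probes, 54 lacked a value on some array. Python 3.11.15 made tables and plots. The normexp alternative (offset 50) used median spot signals in place of the mean signals planned.

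Named genes were all member probes, the 3 genes most correlated with each member, and from each list called genes, up to 4 per direction by size. Of 166 list genes, 160 were tested, in 9 lists by role and 7 of cell markers; some list genes are not reported here by name. Members and lists were chosen with earlier results of these data known. Alternatives changed background, scaling, filter, probe choice, slide, replicate block, source of values and arrays included. All adjusted p values are from limma with Benjamini-Hochberg adjustment.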

Additional observations from a re-analysis of the deposited data

Results flagged for a closer look

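The nephritis response of Ikbkg, IKK2 knockout minus Cre control, was -0.78 on the brighter probe and passed the test of the difference between genotypes itself (adjusted p = 0.0453, limma). All 3 nephritic arrays were above all 3 untreated arrays in Cre controls, and all 3 were below them in IKK2 knockouts. Neither response alone was called (adjusted p = 0.0575 in Cre controls and 0.117 in IKK2 knockouts, limma). The call of their difference held in 5 of 27 alternatives. The second Ikbkg probe gave -0.56 and did not pass (adjusted p = 0.169), and the slide differs between the control arms.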

How the results depend on the processing

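Of 15 called differences of the 5 genes, all 15 kept their sign in every alternative run and 7 kept the call in all: 5 of Ikbke, the Ikbkb mean difference of NEMO knockouts, and Ikbkg between untreated knockouts on its brighter probe. Of the others, 48 were never called and 2 were called in some alternative (Ikbkg with nephritis in Cre controls, Chuk in untreated NEMO knockouts). Numbers of members called changed as follows. Testing 1 probe per gene gave 1 for nephritis in Cre controls instead of 0 (Ikbkg, adjusted p = 0.0423). For untreated IKK2 knockouts against controls, 0 instead of 1 were called with slide as a block, slide 2 alone and only the arrays compared. For untreated NEMO knockouts against controls, 1 instead of 2 were called with no filter, only the arrays compared, without the 2 arrays that stand apart (nephritic Cre control 2 and untreated Cre control 1) and the replicate block, and 3 with normexp and the deposited matrix. For nephritic NEMO knockouts and for the NEMO mean, 2 instead of 3 were called with normexp, scaling to the probes detected throughout, the deposited matrix, the mean of a gene's probes and the replicate block, and for nephritic NEMO knockouts also with only the arrays compared. For the IKK2 knockout response against the control response, 0 instead of 1 were called with normexp, scaling to the probes detected throughout, the deposited matrix, no filter, slide as a block, only the arrays compared, without those 2 arrays, and the replicate block. For the mean IKK2 knockout difference, instead of 2, 1 was called with normexp, the deposited matrix, the mean of a gene's probes, only the arrays compared and the replicate block, and 0 with no filter, slide as a block and without those 2 arrays. Leaving out 1 array at a time gave 1 to 2 for untreated NEMO knockouts, 1 to 3 for nephritic NEMO knockouts, 0 to 1 for the response, 0 to 2 for the mean IKK2 knockout difference and 2 to 3 for the NEMO mean. Where this left 1 array in a group, it was assumed to vary like the others. The causes were not tested.

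Replicate numbers do not pair the samples: 3 of 36 same-numbered pairs correlated above 0.1 in their deviations (range -0.20 to 0.13), so the replicate block describes a shared number only. Slide as a block cannot be fitted for NEMO knockouts against other genotypes, and slide 3 alone holds NEMO knockouts only.

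Genes called over the whole table also moved. Over settings that kept all groups or left arrays out together, nephritis in Cre controls gave 0 to 591 (463 in the report), in IKK2 knockouts 0 to 81 (51) and in NEMO knockouts 0 to 59 (47). IKK2 knockouts against controls gave 0 to 2191 (1768) untreated, 21 to 379 (208) with NTN and 926 to 2043 (1659) as the mean. NEMO against IKK2 knockouts untreated gave 2026 to 5197 (4789), and the responses gave 0 to 166 (70) for IKK2 and 0 to 39 (18) for NEMO knockouts. Leaving out 1 array at a time gave 69 to 663, 0 to 63 and 16 to 45 for nephritis in the same order, 950 to 1980 and 79 to 247 for IKK2 knockouts against controls untreated and with NTN, 3953 to 6328 and 4311 to 7028 for NEMO knockouts against controls (5985 and 6696), 2772 to 5148 and 4251 to 6857 for NEMO against IKK2 knockouts (4789 and 6470), and 0 to 240 and 5 to 31 for the responses.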
